A study of Drosophila melanogaster with 12 samples.

Results

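The genes that encode neuropeptide and peptide hormone precursors, together with the genes that process and package them, were followed across cells sorted from the brains of Drosophila melanogaster larvae. The set was a fixed list of 46 FlyBase symbols, of which 42 were found by their identifiers among the 12610 genes measured. They comprised 26 precursors of small brain peptides, 10 precursors of larger hormones (insulin-like peptides, bursicon subunits, a glycoprotein hormone subunit and others) and 6 genes of processing, packaging and control. Lk, Gpa2, Phm and Pal1 were not found under their identifiers and were not analysed here. Brains came from larvae early in the third instar, were dissociated and were sorted on GFP, a mark of cells in which Rfx is expressed; Rfx is a transcription factor best known as a regulator of ciliary genes. The 4 groups were GFP-positive cells of rfx knock-out (KO) brains, GFP-positive cells of wild-type (WT) brains, GFP-negative cells of KO brains and GFP-negative cells of WT brains, with 3 libraries in each. The labels name neither the rfx allele nor the transgene that carries GFP, and do not say whether replicates came from separate animals or sorts, so the p-values cover only spread among these libraries, which may be technical.

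Neuropeptides are made as longer precursors that enter the secretory pathway, where prohormone convertases cut them at basic residues, carboxypeptidases trim those residues, and amidating enzymes convert a C-terminal glycine to the amide that many receptors require. The finished peptides are stored in dense core vesicles and released by calcium-triggered exocytosis. In the fly brain most precursors are each made by a small, characteristic set of neurons, and many act as hormones released into the circulation.

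The table held 20301256 to 29771321 reads per library. Levels are given as normalised counts, which are reads divided by an effective library size and lie on the CPM scale. Gene positions are those of the BDGP6.54 annotation. Titles number the libraries, and each run of 4 adjacent numbers (13 to 16, 1 to 4 and 5 to 8, given here as replicates 1, 2 and 3) holds 1 library of each group. Genes of ribosomal RNA took 2.54% of the reads of KO GFP-positive replicate 3 and 12.2% of those of WT GFP-positive replicate 2, more than in the other libraries. Rfx, the targeted gene, stood at 1322, 1035 and 1021 in KO GFP-positive cells and 2918, 2542 and 2918 in WT GFP-positive cells, and at 52.3, 52.3 and 54.5 in KO GFP-negative cells and 73.5, 74.1 and 73.5 in WT GFP-negative cells. The genotype and GFP labels thus held in every library, although Rfx reads over the whole gene remained in KO cells. The labels call every group neurons, but 5 marker genes of neuroblasts and progenitors summed to 29.6 to 40.8 in KO GFP-positive, 27.3 to 31.9 in WT GFP-positive, 1264 to 1442 in KO GFP-negative cells and 1043 to 1258 in WT GFP-negative libraries. The sum of 6 neuron markers was 7353 to 9580 and 7981 to 9616 in the KO and WT GFP-positive libraries, against 3749 to 4434 and 3921 to 4582 in the KO and WT GFP-negative libraries. Of these 6 markers, 5 had a positive and 1 a negative log2 change in GFP-positive against GFP-negative cells of each genotype. Sums of 5 hemocyte markers were 85.3 to 189 and 85.9 to 192 in the KO and WT GFP-positive libraries. They were 41.5 to 72.9 and 24.4 to 48.3 in the KO and WT GFP-negative ones. For 6 glia markers, in the same order, they were 425 to 623 and 441 to 451, against 868 to 937 and 629 to 851. The part of these differences in cell make-up in the comparisons of GFP-positive with GFP-negative cells was not tested. In such bulk samples, fewer cells of a type and less RNA per cell cannot be told apart.

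Replicate 2 was the highest library for most of these genes in all 4 groups. A gene was tested where it reached 1 normalised count in at least 3 of the 12 libraries, which 37 of the 42 members did. The median deviation of those 37 from their group mean, on the log2 scale, was 0.57 in KO GFP-positive, 0.74 in WT GFP-positive, 0.72 in KO GFP-negative cells and 0.29 in WT GFP-negative replicate 2, and -0.70 to 0.00 in the other 8 libraries. Over all tested genes the same median lay between -0.08 and 0.07. Replicate 2 was the highest library for 25, 26, 27 and 26 of the 37 members in these groups in that order, against 34.7%, 45.3%, 40.1% and 46.9% of all tested genes. It was the highest in all 4 groups for 19 of the 37 members, against 13.3% of all tested genes. The 36 precursors together summed to 3549 in KO GFP-positive replicate 2, against 1307 and 1449.7 in the other KO GFP-positive libraries. In WT GFP-positive cells they summed to 3340 in replicate 2, against 909.8 and 1219 in the other libraries. The sums in replicates 1, 2 and 3 were 787, 1340 and 445 in KO GFP-negative cells and 680, 1230 and 795 in WT GFP-negative cells. KO GFP-negative replicate 3 also had the lowest median deviation, -0.70, about as far below its group as replicate 2, at 0.72, lay above it. Neuron markers were highest in replicate 2 in each group as well, but by less: 9579.7 in KO GFP-positive replicate 2 against 8256 and 7353 in the other 2 libraries. Their part in the pattern was not tested. Deviations correlated between same-numbered libraries of compared groups, so a second fit held the run as a block, and its result is given wherever it changes a call.

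**Figure D1:**
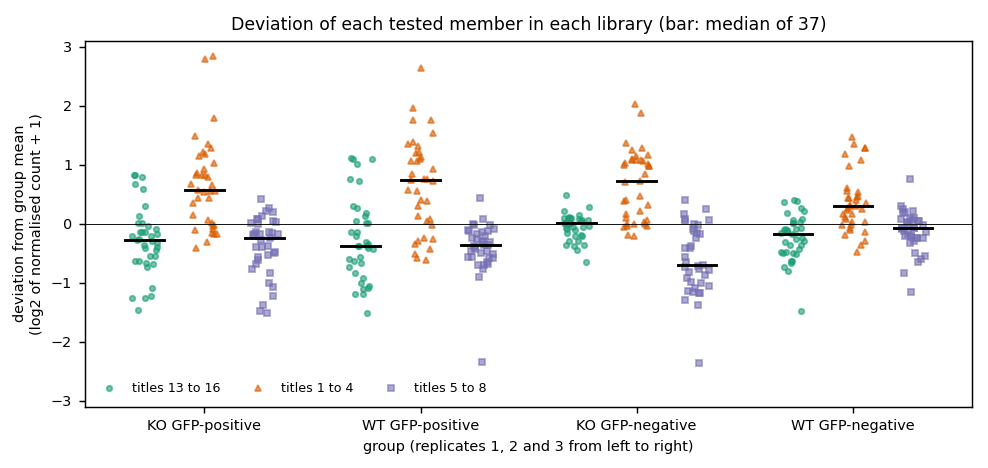
Deviation of each tested neuropeptide and processing gene from its group mean (log2, vertical axis) in each of the 12 libraries (horizontal axis, grouped by genotype and GFP); each point is 1 gene and the bar is the median. The medians of replicate 2 sit at 0.57, 0.74, 0.72 and 0.29, above those of the other 8 libraries, which lie between -0.70 and 0.00.

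Per kilobase of exon, IA-2 had the highest mean of the members in every group but KO GFP-negative cells, where Pal2 had. IA-2 encodes a transmembrane protein of dense core vesicles related to tyrosine phosphatases, and Pal2 a lyase of the second step of C-terminal amidation. IA-2 had 735 ± 496 normalised counts per kilobase in KO GFP-positive cells and 636 ± 302 in WT GFP-positive cells (SD, n = 3 each), and Pal2 had 417 ± 153 in KO GFP-positive cells and 366 ± 132 in WT GFP-positive cells. In KO GFP-negative cells IA-2 had 145 ± 102 and Pal2 154 ± 52.1, and in WT GFP-negative cells 149 ± 38.2 and 146 ± 35.3. The ranges of IA-2 and Pal2 over the 3 libraries overlapped in all 4 groups. In both GFP-negative groups the order of IA-2 and Pal2 changed between libraries. By normalised counts, without regard to length, IA-2 was the 10th, 1st and 9th most abundant of the 12610 genes in KO GFP-positive replicates 1, 2 and 3, and the 9th, 3rd and 8th in the WT GFP-positive ones. The leading precursors per kilobase differed between the groups. They were Dh31 (279 ± 169.7), spab (266 ± 139) and Nplp1 (224 ± 127) in KO GFP-positive cells, and spab (224 ± 155), Ms (212 ± 157) and AstC (189.8 ± 159) in WT GFP-positive cells. In both GFP-negative groups Nplp1 and sNPF led, with Nplp1 at 99.9 ± 69.9 in KO GFP-negative cells and 124 ± 48.6 in WT GFP-negative cells. The ranges of the leading precursors over the 3 libraries overlapped in both GFP-positive groups and in KO GFP-negative cells. In WT GFP-negative cells Nplp1, at 92.1 to 179.7, lay wholly above sNPF, at 55.6 to 76.8. The mean of Crz there was close to that of sNPF, at 63.0 ± 51.7 against 63.3 ± 11.7. Its range of 16.0 to 118 overlapped those of both Nplp1 and sNPF. Library by library, spab exceeded Nplp1 in all 3 KO GFP-positive libraries and AstC in all 3 WT GFP-positive libraries.

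KO and WT GFP-positive cells were set against each other to see which peptide genes move when Rfx is lost from its own cells. Of the 37 tested members, 5 passed the test (adjusted p under 0.05 in limma, over all 9912 genes tested). Ms, CCHa1 and CNMa fell, and Tk and dimm rose, the last being the only one of the 6 processing and control genes to pass. None of the 7 tested larger hormones passed. Across all tested genes 3.07% were called, 1.75% higher and 1.32% lower. The median log2 change was -0.00 over the members and 0.01 over all tested genes. With the run as a block, Dh31 and CCHa2 passed as well, giving 4 higher and 3 lower members against 4.79% of all tested genes (2.91% higher, 1.89% lower). On the recovered reads, edgeR called 3 members against 3.05% of all tested genes, and DESeq2 7 members, the 5 above with Mip and Pburs, against 5.09%.

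Ms (FBgn0011581, 3R, 24341551 to 24343825) encodes myosuppressin, which inhibits contraction of heart and gut muscle. It stood at 1.46, 39.6 and 1.06 normalised counts in KO GFP-positive cells and at 127, 463 and 159.9 in WT GFP-positive cells. All 3 KO libraries lay below all 3 WT libraries, and replicate 2 was the highest of both groups. The ratio of means was 17.8-fold lower in KO cells (log2 change -5.17 ± 0.87, SE; adjusted p = 0.00411), and within replicates 1, 2 and 3 Ms was 86.8, 11.7 and 151-fold lower. The ratio was 198-fold without KO GFP-positive replicate 2 and 10.2-fold without WT GFP-positive replicate 2. The call was not made by edgeR on the recovered reads (adjusted p = 0.0617) or without the 2 libraries richest in rRNA (0.0532). In KO GFP-positive replicates 1 and 3 its level lay within the range of the GFP-negative libraries, where Ms stood at 0.988, 0.852 and 0.741 in KO and 1.83, 1.32 and 1.39 in WT.

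CCHa1 (FBgn0038199, 3R, 14092504 to 14096835) encodes CCHamide-1, a peptide of brain and gut. It stood at 1.98, 8.42 and 1.37 in KO GFP-positive cells and 18.4, 49.3 and 27.2 in WT GFP-positive cells, with no overlap between the groups and replicate 2 highest in both. It was 8.06-fold lower in KO cells by the ratio of means (log2 change -2.90 ± 0.56, adjusted p = 0.0123), 9.27, 5.86 and 19.8-fold lower within the 3 replicates, and 18.9-fold lower without KO GFP-positive replicate 2. The call was lost without KO GFP-positive replicate 1 or 3 (adjusted p = 0.0662 and 0.0617), in edgeR (0.0736) and without the 2 rRNA-rich libraries (0.133). CNMa (FBgn0035282, 3L, 1850915 to 1855591), the precursor of CNMamide, stood at 7.3, 5.64 and 1.61 in KO GFP-positive cells and 9.55, 86.3 and 28.4 in WT GFP-positive cells. The groups did not overlap, but the replicate 1 libraries lay close together, and within the 3 replicates CNMa was 1.31, 15.3 and 17.7-fold lower. Its ratio of means was 8.54-fold lower (log2 change -2.52 ± 0.60, adjusted p = 0.0396), or 3.92-fold without WT GFP-positive replicate 2. The CNMa call was the least secure of the 3 on leaving out libraries, although edgeR kept it and kept neither Ms nor CCHa1. It was lost without any 1 of 11 libraries, all but WT GFP-positive replicate 1 (adjusted p = 0.0531 to 0.158). It was also lost without the 2 rRNA-rich libraries (0.154) and without title numbers 1 to 4 (0.127).

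Tk (FBgn0037976, 3R, 11994175 to 12005473) encodes the tachykinins, which modulate sensory circuits, aggression and gut physiology. It stood at 11, 23.7 and 8.11 in KO GFP-positive cells and 1.4, 2.55 and 0.594 in WT GFP-positive cells, so that every KO library lay above every WT library. It was 9.42-fold higher in KO cells by the ratio of means (log2 change 2.55 ± 0.50, adjusted p = 0.0135), 7.86, 9.29 and 13.6-fold higher within the 3 replicates, and 14.3-fold higher without WT GFP-positive replicate 2. The call was lost without KO GFP-positive replicate 2 (adjusted p = 0.0552) or WT GFP-positive replicate 3 (0.0688). In GFP-negative cells Tk stood at 9.2, 27.2 and 5.89 in KO and 8.11, 14.6 and 14.4 in WT, a range that overlaps that of KO GFP-positive cells and lies above every WT GFP-positive library.

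dimm (FBgn0023091, 2L, 21331756 to 21342155) encodes Dimmed, a basic helix-loop-helix factor that drives the neurosecretory fate and the genes of peptide processing. It stood at 8.91, 7.95 and 10.7 in KO GFP-positive cells and 3.16, 4.97 and 2.9 in WT GFP-positive cells without overlap, and was 2.5-fold higher by the ratio of means (log2 change 1.14 ± 0.24, adjusted p = 0.0185). Within the 3 replicates it was 2.82, 1.6 and 3.7-fold higher. The call was lost without KO GFP-positive replicate 1 or 3 (adjusted p = 0.0627 and 0.082) or WT GFP-positive replicate 1 or 3 (0.0892 and 0.094). In GFP-negative cells dimm stood at 3.15, 2.95 and 3.23 in KO and 4.81, 2.18 and 3.72 in WT, both overlapping the WT GFP-positive range. The other 5 processing genes, amon, Pal2, svr, IA-2 and Cadps, did not pass, with log2 changes of 0.24, 0.19, 0.13, 0.11 and 0.00.

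Dh31 (FBgn0032048, 2L, 8491868 to 8506845), the calcitonin-like diuretic hormone 31, stood at 191, 609 and 282 in KO GFP-positive cells and 42, 239 and 73.1 in WT GFP-positive cells. The ranges overlapped, because WT GFP-positive replicate 2 exceeded KO GFP-positive replicate 1, but within replicates Dh31 was 4.55, 2.55 and 3.86-fold higher in KO cells. The log2 change was 1.81, with an adjusted p of 0.235 without the block and 0.00304 with it. CCHa2 (FBgn0038147, 3R, 13389059 to 13395197), the nutrient-dependent CCHamide-2 that acts on insulin release, stood at 17.7, 109.8 and 29.3 in KO GFP-positive cells and 6.71, 35.1 and 12.4 in WT GFP-positive cells, again overlapping. It was 2.63, 3.13 and 2.35-fold higher within replicates (log2 change 1.35, adjusted p = 0.592 without and 0.0104 with the block).

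**Figure D2:**
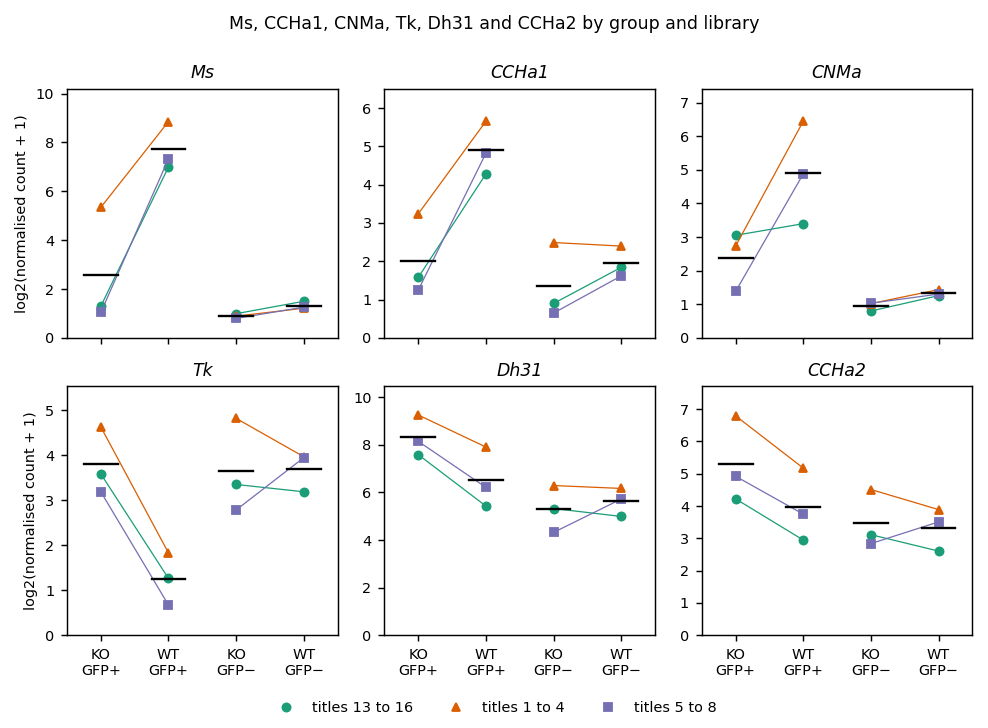
Normalised counts (vertical axis, log2 of the value plus 1) of Ms, CCHa1, CNMa, Tk, Dh31 and CCHa2 in the 4 groups (horizontal axis); each point is 1 library, lines join libraries of 1 run and bars are means of the plotted log2 values. Ms stands at 1.46, 39.6 and 1.06 in KO GFP-positive cells and between 127 and 463 in WT GFP-positive cells, while Tk stands at 8.11 to 23.7 in KO and 0.594 to 2.55 in WT GFP-positive cells.

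Each library's share of its summed precursor signal sets aside only a rise that all precursors have in common. Shares of genes that rose less than the total in replicate 2 fell there. Gpb5, at 46.7, 59.2 and 57.4 in the WT GFP-positive libraries, made up 5.13%, 1.77% and 4.71% of their totals. The share was chosen as a measure after the values were seen. It is a description, since the smallest p of an exact two-sided permutation test with 3 libraries a side is 0.1. Ms made up 0.112%, 1.12% and 0.073% of the summed value of the 36 precursors in the KO GFP-positive libraries and 13.9%, 13.8% and 13.1% in the WT GFP-positive libraries. The 3 WT shares lay within 1 percentage point of each other although the Ms level itself ran from 127 to 463. Dh31 made up 14.6%, 17.2% and 19.5% in KO GFP-positive cells and 4.62%, 7.15% and 6.0% in WT GFP-positive libraries, without overlap. Leaving Ms out of the total, the Dh31 share was 17.2% ± 2.42 in KO GFP-positive cells and 6.86% ± 1.47 in WT GFP-positive cells (SD, n = 3 each). Nplp1, a precursor of several neuropeptide-like peptides, made up 29.2% ± 3.63 in KO GFP-positive cells and 19.4% ± 2.18 in WT GFP-positive cells, and spab made up 15.6% ± 1.33 in KO GFP-positive cells and 14.9% ± 2.04 in WT GFP-positive cells. Since Ms took a larger part of the WT total, the shares of the other precursors were also taken without it: Nplp1 then made up 29.4% ± 3.6 in KO GFP-positive cells and 22.5% ± 2.62 in WT GFP-positive cells. The spab share without Ms was 15.5%, 14.6% and 17.1% in the KO GFP-positive libraries and 15.4%, 16.7% and 19.8% in the WT GFP-positive libraries, which overlap, and its mean was then lower in KO rather than higher. These are shares of normalised counts, not corrected for gene length.

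The other abundant precursors did not pass in this comparison. AstC, which encodes the somatostatin-related allatostatin C, stood at 61.7, 339.6 and 157 in KO GFP-positive cells and 77.1, 443 and 165 in WT GFP-positive cells, with ranges that nearly coincide. spab stood at 202, 511 and 247 in KO GFP-positive cells and 121, 479 and 209.7 in WT GFP-positive cells, and Nplp1 stood at 435, 999 and 381 in KO GFP-positive cells and 197, 639.5 and 212 in WT GFP-positive cells. For sNPF, the short neuropeptide F precursor that promotes feeding and growth, the values were 142, 280.4 and 97.6 in KO GFP-positive cells and 91.1, 376 and 127 in WT GFP-positive cells. Proc, the precursor of the muscle stimulant proctolin, stood at 24.2, 70.1 and 34.7 in KO GFP-positive cells and 37.4, 88.4 and 35.1 in WT GFP-positive cells. Across libraries the KO and WT ranges of each of these overlapped, but within runs some kept 1 direction. Nplp1 was 2.2, 1.56 and 1.8-fold higher in KO cells within the 3 replicates (adjusted p = 0.804 without and 0.0827 with the block). spab was 1.67, 1.07 and 1.18-fold higher within them (0.963 and 0.651). AstC and Proc were lower in KO cells in all 3 runs (with the block, adjusted p = 0.856 and 0.691), and sNPF was higher in 1 run and lower in 2. Of the 37 members, 11 were higher and 10 lower in KO cells in all 3 runs, against 20.6% and 15.3% of all tested genes. Counting groups that do not overlap, 2 members lay wholly higher and 5 wholly lower in KO, against 8.16% and 5.94% of all tested genes.

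**Figure D3:**
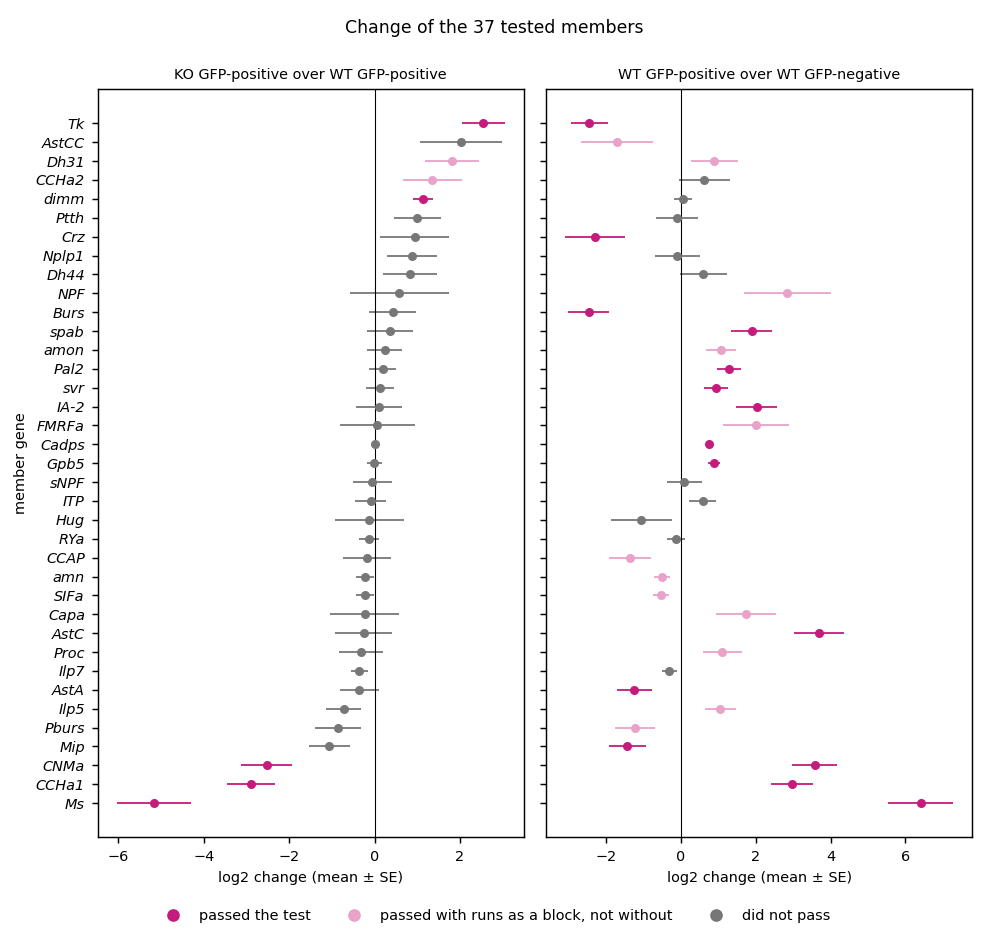
Log2 change (horizontal axes, points with SE) of the 37 tested members (vertical axis) for KO over WT GFP-positive cells, left, and for GFP-positive over GFP-negative cells of WT brains, right; dark pink marks members past the test over all 9912 genes and light pink those past it with the run as a block but not without it. Ms, CCHa1 and CNMa lie lowest for KO against WT GFP-positive cells, at -5.17, -2.90 and -2.52, and Tk highest, at 2.55.

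Within WT brains, GFP-positive cells were set against GFP-negative cells to show which peptide genes mark the Rfx population. Of the 37 members, 10 were higher and 5 lower in GFP-positive cells, against 38% of all tested genes called, 25.7% higher and 12.3% lower. Of all calls 67.7% were higher, but 33.4% with all libraries rescaled to 1 total, 57.1% with quantile normalisation, 55.6% in edgeR and 51.9% in DESeq2. The 40.5% of members called is near the share of all genes. Among precursors, Ms, AstC, CNMa, CCHa1, spab and Gpb5 were higher, and Tk, Crz, Mip, AstA and Burs were lower. Of the 6 processing genes, IA-2, Pal2, svr and Cadps were higher and none was lower. The median log2 change was 0.59 over the members and 0.09 over all tested genes. With the run as a block, 17 were higher and 10 lower, against 45.8% of all tested genes called (30.6% higher, 15.2% lower). edgeR called 14 members against 35.4% of all tested genes, and DESeq2 20 against 39.8%. Groups lay wholly apart for 16 members higher and 4 lower, against 33% and 15.2% of all tested genes. This comparison and the one between genotypes share the WT GFP-positive libraries, so the 4 precursors called in both are not independent results.

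Ms, AstC, CNMa and CCHa1 had the largest log2 changes of the members called higher. Ms, CNMa and CCHa1 were scarce in WT GFP-negative cells, where AstC still stood at 11.6 to 15.5. Ms was 165-fold higher in WT GFP-positive cells by the ratio of means (log2 change 6.40 ± 0.87, adjusted p = 8.83e-05), and 94.6-fold without WT GFP-positive replicate 2. AstC (FBgn0032336, 2L, 11076165 to 11081399) stood at 77.1, 443 and 165 in WT GFP-positive cells and 12, 15.5 and 11.6 in WT GFP-negative cells, a 17.5-fold difference (log2 change 3.68 ± 0.66, adjusted p = 0.000856), or 9.27-fold without that library. The lowest GFP-positive library lay well above the highest GFP-negative one. CNMa at 9.55, 86.3 and 28.4 against 1.39, 1.71 and 1.47 in WT GFP-negative cells gave 27.2-fold (adjusted p = 0.000482; 12.5-fold without WT GFP-positive replicate 2). CCHa1, at 2.58, 4.27 and 2.07 in WT GFP-negative cells, was 10.6-fold higher in WT GFP-positive cells (adjusted p = 0.00125). For spab (FBgn0033358, 2R, 8963164 to 8968184), WT GFP-negative cells had 43.1, 83.5 and 64.3, 4.24-fold below the GFP-positive mean (adjusted p = 0.0146), with the call lost and the fold at 2.6 without WT GFP-positive replicate 2 (adjusted p = 0.065). It was also lost without WT GFP-negative replicate 1 (0.0622) and without the 2 rRNA-rich libraries (0.0749).

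NPF (FBgn0027109, 3R, 16609220 to 16611325), the fly relative of neuropeptide Y, passed in limma with the block but not without it, and in edgeR (adjusted p = 0.0223) and DESeq2 (0.000288). It stood at 6.89, 60 and 0.929 in WT GFP-positive cells and 0.437, 0.512 and 0.151 in WT GFP-negative cells, which do not overlap but spread widely within the GFP-positive group (log2 change 2.85, adjusted p = 0.0728 without and 0.0132 with the block). In limma, FMRFa, Capa, Proc, Dh31 and Ilp5 were likewise higher with the block but not without it; of these, DESeq2 called FMRFa (adjusted p = 0.0463) and Ilp5 (0.029), and edgeR none. FMRFa, a precursor of FMRFamides that act on muscle, stood at 6.46, 53.7 and 9.36 in WT GFP-positive cells and 1.31, 3.11 and 5.83 in WT GFP-negative cells (adjusted p = 0.0914 without and 0.0054 with the block). Capa, whose peptides act on the renal tubules, stood at 5.71, 53.3 and 6.5 in WT GFP-positive cells and 2.03, 4.65 and 3.35 in WT GFP-negative cells (0.11 and 0.00309). Proc, at 18.4, 31.1 and 18.9 in WT GFP-negative cells, gave 0.11 and 0.00313, and Dh31, at 30.8, 70.9 and 51.7, gave 0.287 and 0.0309.

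The small peptides called lower in WT GFP-positive cells were Tk, Crz, Mip and AstA. Tk, at 1.4, 2.55 and 0.594 against 8.11, 14.6 and 14.4 in WT GFP-negative cells, was 8.17-fold lower (log2 change -2.44 ± 0.50, adjusted p = 0.0021), or 12.4-fold without WT GFP-positive replicate 2. Crz, which encodes corazonin, a stress-related peptide akin to gonadotropin-releasing hormone, stood at 3.41, 11.4 and 4.12 in WT GFP-positive cells and 10.5, 77.4 and 35.7 in WT GFP-negative cells. It was 6.52-fold lower (adjusted p = 0.0387), 10.9-fold without WT GFP-positive replicate 2 and 3.65-fold without WT GFP-negative replicate 2. The groups overlapped by 1 library each, and the Crz call was lost without KO GFP-positive replicate 1, WT GFP-positive replicate 1 or 3, KO GFP-negative replicate 1, or WT GFP-negative replicate 2 or 3 (adjusted p = 0.0516 to 0.130). Mip, the myoinhibitory peptide precursor, stood at 2.91, 3.76 and 2.12 in WT GFP-positive cells and 6.72, 19.5 and 6.17 in WT GFP-negative cells, without overlap, 3.69-fold lower (adjusted p = 0.0362) or 2.2-fold without WT GFP-negative replicate 2. Its call was lost without any 1 WT GFP-positive library or WT GFP-negative replicate 2 (0.05002 to 0.128), with quantile normalisation (0.0789) and without the 2 rRNA-rich libraries (0.0609). AstA, the allatostatin A precursor related to galanin, stood at 2.94, 9.66 and 2.15 in WT GFP-positive cells and 9.22, 12.5 and 11.7 in WT GFP-negative cells, 2.27-fold lower (adjusted p = 0.0491), or 4.38-fold without WT GFP-positive replicate 2. That call was lost on leaving out 7 libraries in turn (KO GFP-positive replicate 3, WT GFP-positive replicate 1 or 3, KO GFP-negative replicate 1, any WT GFP-negative library; 0.0571 to 0.179), with a pseudocount of 0.5 (0.0518), with no filter (0.0569), with quantile normalisation (0.0525) and in edgeR (0.0907). In limma, AstCC, CCAP, SIFa and amn were lower with the block but not without it, at adjusted p of 0.0269, 0.0181, 0.0431 and 0.00551 with it. DESeq2 called CCAP (0.014) and amn (0.0232) as well, and edgeR none of the 4.

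In KO brains, 12 members were higher and 5 lower in GFP-positive than in GFP-negative cells, against 36.5% of all tested genes called, 23.6% higher and 12.9% lower. Of all calls 64.8% were higher, but 39.8% rescaled, 55.0% with quantile normalisation, 52.9% in edgeR and 53.7% in DESeq2. The members called came to 45.9%. All 6 processing genes were higher. The higher precursors were AstC, NPF, Dh31, spab, Dh44 and Gpb5, and the lower ones were Mip, CCAP, amn, Burs and Pburs. The median log2 change was 0.88 over the members and 0.07 over all tested genes. With the block, 19 were higher and 7 lower, against 43.9% of all tested genes called (28.6% higher, 15.3% lower). edgeR called 20 members against 35.9% of all tested genes, and DESeq2 24 against 40.5%. Groups lay wholly apart for 14 members higher and 6 lower, against 30.3% and 18.1% of all tested genes. The KO comparison contrasts no library of the WT one. Both rest on the same 3 runs and on 1 estimate of spread from all 12 libraries, so their calls are not independent.

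AstC stood at 61.7, 339.6 and 157 in KO GFP-positive cells and 8.7, 23.8 and 6.02 in KO GFP-negative cells, 14.5-fold higher (log2 change 3.65 ± 0.66, adjusted p = 0.000964), 8.51-fold without KO GFP-positive replicate 2 and 25.3-fold without KO GFP-negative replicate 2. The AstC difference was therefore present in both genotypes. Dh31 stood at 191, 609 and 282 in KO GFP-positive cells and 39, 77.2 and 19 in KO GFP-negative cells without overlap, 8.01-fold higher (adjusted p = 0.00254), or 5.26-fold and 12.4-fold without replicate 2 of the GFP-positive or GFP-negative group. spab, at 43.3, 91.8 and 23.7 in KO GFP-negative cells, was 6.04-fold higher in KO GFP-positive cells (adjusted p = 0.00199; 9.55-fold without KO GFP-negative replicate 2).

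Dh44, the diuretic hormone related to corticotropin-releasing factor, stood at 53.6, 186 and 59 in KO GFP-positive cells and 18.6, 34.9 and 6.98 in KO GFP-negative cells without overlap. It was 4.93-fold higher (adjusted p = 0.0137), but the call was lost without KO GFP-positive replicate 2 (0.0639, 2.79-fold) or KO GFP-negative replicate 3 (0.0651), and the fold was 7.77 without KO GFP-negative replicate 2. In WT brains Dh44 stood at 29.1, 122 and 28.8 in GFP-positive and 27.4, 36.5 and 29.2 in GFP-negative cells, which overlap. NPF stood at 4.27, 104 and 4.62 in KO GFP-positive cells and 0.154, 0.355 and 0.48 in KO GFP-negative cells, with every GFP-positive library above every GFP-negative one and replicate 2 far above the other 2. Its ratio of means was 114-fold (log2 change 3.46 ± 1.17, adjusted p = 0.0346) and 13.5-fold without KO GFP-positive replicate 2, where the call was lost (0.145), as it was without any 1 KO GFP-negative library (0.0654 to 0.0862). In limma, CNMa, CCHa2, Nplp1, FMRFa, Proc, Capa and ITP were higher, and AstA and Crz lower, with the block but not without it. Of these, edgeR called CNMa (adjusted p = 0.0303), and DESeq2 called CNMa (0.00151), CCHa2 (0.0396), ITP (0.0296) and AstA (0.0423). Ms did not pass in limma in KO brains with or without the block, but was called higher by edgeR (0.028) and DESeq2 (0.00221). It stood at 1.46, 39.6 and 1.06 in KO GFP-positive and 0.988, 0.852 and 0.741 in KO GFP-negative cells, with only replicate 2 far above. CNMa, for example, stood at 7.3, 5.64 and 1.61 in KO GFP-positive cells and 0.741, 1.03 and 1.05 in KO GFP-negative cells (adjusted p = 0.0787 without and 0.0409 with the block).

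Among the precursors lower in KO GFP-positive cells, Mip stood at 0.748, 0.94 and 0.901 against 10.2, 21.8 and 3.88 in KO GFP-negative cells, 13.8-fold lower (adjusted p = 0.00152) or 8.13-fold without KO GFP-negative replicate 2. CCAP, the cardioactive peptide of the ecdysis sequence, stood at 0.15, 0.901 and 0.274 against 4.2, 13.2 and 3.01 in KO GFP-negative cells, 15.4-fold lower (adjusted p = 0.00747), 32.1-fold without KO GFP-positive replicate 2 and 8.16-fold without KO GFP-negative replicate 2. Neither gene's groups overlapped. amn, the amnesiac gene named for its memory mutant, stood at 21.3, 22.9 and 27.1 in KO GFP-positive cells and 37.9, 33.7 and 46.2 in KO GFP-negative cells (log2 change -0.69 ± 0.21, adjusted p = 0.0217). Its call was lost without KO GFP-positive replicate 1 or 2 (0.0734 and 0.0619) or KO GFP-negative replicate 3 (0.0928). Replicate 2 was not the highest amn library in either KO group.

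For other precursors the sorted populations overlapped, in at least 1 genotype. sNPF had 220.2, 255 and 154 in KO GFP-negative cells and 141, 188 and 136 in WT GFP-negative cells, which overlap the GFP-positive values of each genotype, and it passed in no comparison. Nplp1 had 254, 466 and 89.4 in KO GFP-negative cells and 249, 485 and 269 in WT GFP-negative cells, and in limma passed in KO brains with the block but not without it (adjusted p = 0.101 without and 0.00101 with it). CCHa2 had 7.66, 21.8 and 6.15 in KO GFP-negative cells and 5.09, 13.8 and 10.4 in WT GFP-negative cells, and likewise passed in limma in KO brains with the block but not without it (0.055 without and 0.000134 with it). Proc had 18.1, 33.8 and 7.24 in KO GFP-negative cells, and CCHa1 had 0.864, 4.62 and 0.567 there. In KO brains Crz was at 10.4, 31.1 and 4.39 in GFP-positive cells and 27.8, 74.3 and 12.6 in GFP-negative cells, and AstA was at 1.46, 4.35 and 3.76 in GFP-positive cells and 6.95, 12 and 3.84 in GFP-negative cells, each overlapping. In WT brains CCAP was at 1.62, 0.325 and 0.149 in GFP-positive cells and 1.63, 8.83 and 1.58 in GFP-negative cells, and amn at 25, 22.6 and 37.9 in GFP-positive cells and 41.4, 30.9 and 49.4 in GFP-negative cells, again overlapping. That a gene passed in 1 genotype and not in the other does not show that the genotypes differ, which only the interaction tests.

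**Figure D4:**
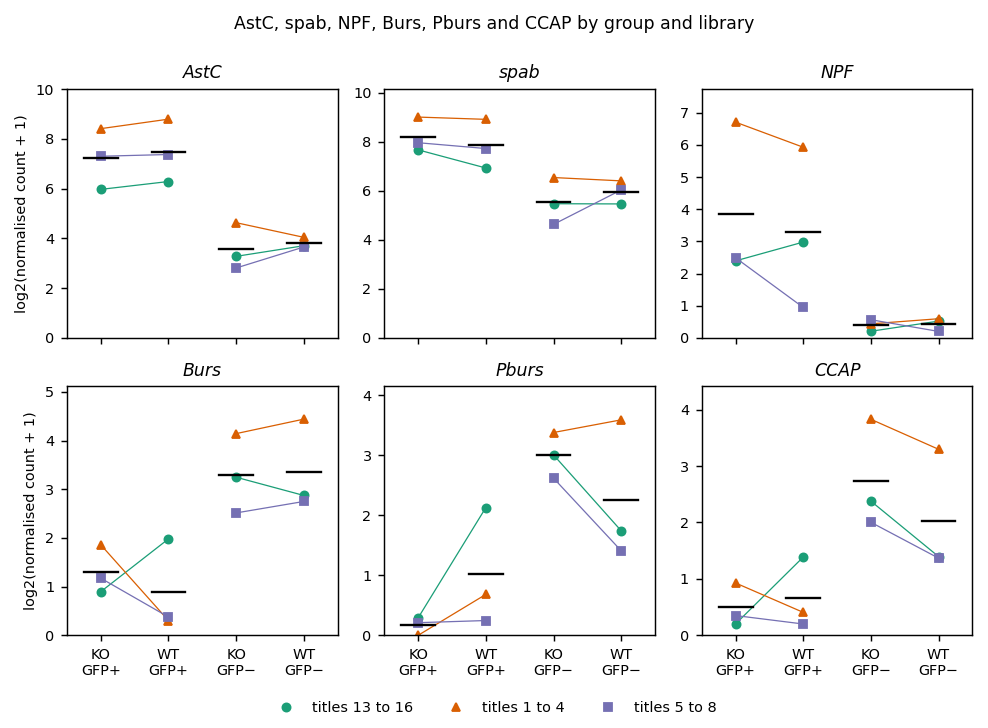
Normalised counts (vertical axis, log2 of the value plus 1) of AstC, spab, NPF, Burs, Pburs and CCAP in the 4 groups (horizontal axis); each point is 1 library, lines join libraries of 1 run and bars are means of the plotted log2 values. AstC lies at 61.7 or more in every GFP-positive library and at 23.8 or less in every GFP-negative one, and Burs, Pburs and CCAP, in the lower row, run the other way in KO brains.

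Of the larger hormones, Gpb5, the beta subunit of a thyrostimulin-like glycoprotein hormone, was the steadiest. It stood at 44.5, 59.9 and 59.2 in KO GFP-positive cells and 27.1, 33.7 and 26.5 in KO GFP-negative cells, 1.88-fold higher (adjusted p = 0.00144), and at 46.7, 59.2 and 57.4 in WT GFP-positive cells and 23.3, 30.6 and 33.6 in WT GFP-negative cells, 1.87-fold higher (0.00129). The groups were apart in both genotypes. Burs and Pburs encode the subunits of bursicon, the hormone of cuticle tanning and wing expansion. Burs stood at 0.861, 2.62 and 1.25 in KO GFP-positive cells and 8.49, 16.7 and 4.71 in KO GFP-negative cells, 6.3-fold lower (adjusted p = 0.014; 4.18-fold without KO GFP-negative replicate 2), with the call lost without KO GFP-positive replicate 1 (0.055) or KO GFP-negative replicate 2 (0.0564). In WT brains Burs stood at 2.94, 0.232 and 0.297 in GFP-positive and 6.32, 20.7 and 5.72 in GFP-negative cells, 9.42-fold lower (adjusted p = 0.00396), 41.2-fold without WT GFP-positive replicate 1 and 5.2-fold without WT GFP-negative replicate 2. Both genotypes kept the Burs groups apart. Pburs stood at 0.225, 0 and 0.157 in KO GFP-positive cells and 7.04, 9.41 and 5.14 in KO GFP-negative cells, 56.6-fold lower (log2 change -2.83 ± 0.54, adjusted p = 0.00139), or 91.9-fold without KO GFP-positive replicate 1. The 0 reads in KO GFP-positive replicate 2 allow up to 3 reads, or 0.118 normalised counts. In WT brains Pburs was at 3.38, 0.604 and 0.186 in GFP-positive and 2.35, 11.1 and 1.66 in GFP-negative cells, which overlap, and passed with the block but not without it (adjusted p = 0.0937 without and 0.0479 with it).

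Ilp5, an insulin-like peptide of the insulin-producing cells, stood at 6.71, 1.86 and 1.56 in WT GFP-positive cells and 1.23, 0.811 and 0.564 in WT GFP-negative cells (adjusted p = 0.0586 without and 0.00888 with the block). Its highest library in both genotypes of GFP-positive cells was replicate 1, at 3.03 in KO and 6.71 in WT. Ilp2 and Ilp3 were also highest in WT GFP-positive replicate 1, at 2.33 and 3.30, while Ilp7 was highest in WT GFP-negative replicate 1, at 1.91. ITP, the antidiuretic ion transport peptide, stood at 24, 13.1 and 6.86 in KO GFP-positive cells and 7.1, 7.32 and 5.89 in KO GFP-negative cells, which overlap (adjusted p = 0.0827 without and 0.0209 with the block). Ptth, the prothoracicotropic hormone that drives ecdysone production, ran from 1.19 to 10.6 over the 12 libraries and passed in no comparison in limma, edgeR or DESeq2, but was called higher in KO GFP-positive than in KO GFP-negative cells without the 2 rRNA-rich libraries (adjusted p = 0.0113). Dsk, Trissin, Eh, Ilp2 and Ilp3 did not reach the level for testing, and their highest values in any library were 0.617, 0.557, 2.39, 2.33 and 3.30. SIFa, RYa and Ilp7 were tested at low levels, reaching at most 1.79, 1.59 and 1.91 in any library. Ilp7 was called lower in KO GFP-positive than in KO GFP-negative cells by edgeR (adjusted p = 0.0473) and DESeq2 (0.0458) but not by limma (0.12). Hug, the precursor of pyrokinins that curb feeding, stayed at or under 2.3 in GFP-positive libraries but reached 13.7 in KO GFP-negative replicate 2 and 10.3 in WT GFP-negative replicate 2. It passed in no comparison in limma or edgeR, and DESeq2 called it lower in KO GFP-positive than in KO GFP-negative cells (adjusted p = 0.0458). AstCC, a paralogue of AstC, was at 13.1, 29.1 and 19.6 in KO GFP-positive cells and 1.22, 16.1 and 2.41 in WT GFP-positive cells, which overlap, with a log2 change of 2.02 that did not pass (adjusted p = 0.518 without and 0.0724 with the block).

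All 6 processing, packaging and control genes were called higher in GFP-positive cells of KO brains. In WT brains 4 of the 6 were, and amon and dimm were not. The median log2 change of the 6 processing, packaging and control genes was 1.00 in WT and 1.37 in KO brains. That of the neuron markers was 1.05 and 1.15, and whether the 6 genes differ from them was not tested. Cadps, which primes dense core vesicles for exocytosis, stood at 709, 697 and 708 in KO GFP-positive cells and 411, 428 and 450.2 in KO GFP-negative cells, and at 721, 696 and 692 in WT GFP-positive cells and 417, 410.0 and 419 in WT GFP-negative cells. It was 1.64-fold higher in KO (adjusted p = 1.57e-05) and 1.69-fold higher in WT (8.71e-06), and its libraries differed little within each group. IA-2 stood at 4237, 13389.6 and 4980.3 in KO GFP-positive cells and 1302, 2609 and 545 in KO GFP-negative cells, 5.07-fold higher (adjusted p = 0.00382), or 3.1-fold and 8.16-fold without replicate 2 of the GFP-positive or GFP-negative group. In WT it stood at 4502, 10093 and 4977 in GFP-positive and 1401, 1973 and 1223 in GFP-negative cells, 4.26-fold higher (adjusted p = 0.0104; 0.0505 without the 2 rRNA-rich libraries). Its groups did not overlap in either genotype.

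amon encodes the fly's prohormone convertase 2, which cuts precursors at basic residues. It stood at 322, 674 and 347 in KO GFP-positive cells and 155, 238 and 81.3 in KO GFP-negative cells, 2.83-fold higher (adjusted p = 0.00928). In WT it stood at 276, 607 and 276 in GFP-positive and 159, 209 and 148 in GFP-negative cells, 2.24-fold by the ratio of means, and passed with the block but not without it (adjusted p = 0.0515 without and 0.000403 with it). svr, whose product silver is a carboxypeptidase D that trims the basic residues left by the convertase, stood at 404, 754 and 458 in KO GFP-positive cells and 244, 319 and 180.5 in KO GFP-negative cells, 2.17-fold higher (adjusted p = 0.0168), a call lost without KO GFP-positive replicate 2 (0.0777) or KO GFP-negative replicate 3 (0.0763). In WT svr stood at 375, 804 and 354 in GFP-positive and 219, 307 and 226 in GFP-negative cells, 2.04-fold higher (adjusted p = 0.0356). The WT call was lost without WT GFP-positive replicate 2 (0.149), WT GFP-negative replicate 1 or 3 (0.105 and 0.1003), the 2 rRNA-rich libraries (0.155), after rescaling all libraries to 1 total (0.0793), with quantile normalisation (0.0712) and in edgeR (0.0541). For amon and svr alike, every GFP-positive library lay above every GFP-negative one of its genotype.

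Pal2 stood at 810.4, 1363 and 706 in KO GFP-positive cells and 364, 469.8 and 230.4 in KO GFP-negative cells, 2.71-fold higher (adjusted p = 0.00378), and at 604, 1186 and 738 in WT GFP-positive cells and 255, 418 and 336 in WT GFP-negative cells, 2.51-fold higher (0.00674). Every GFP-positive library lay above every GFP-negative one. The libraries keep no strand, and 25.7% of the exon bases of Pal2 overlap CG30183 on the other strand, so reads of the 2 genes cannot be told apart there; CG30183 itself ran from 48.3 to 85.5. For SIFa the overlap is with Start1 and covers 21.1% of exon bases; for the other members it was at most 7.54%. dimm was 2.96-fold higher in KO GFP-positive than in KO GFP-negative cells (adjusted p = 0.000979). In WT its GFP-positive and GFP-negative ranges overlapped, with a log2 change of 0.05 (adjusted p = 0.884).

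**Figure D5:**
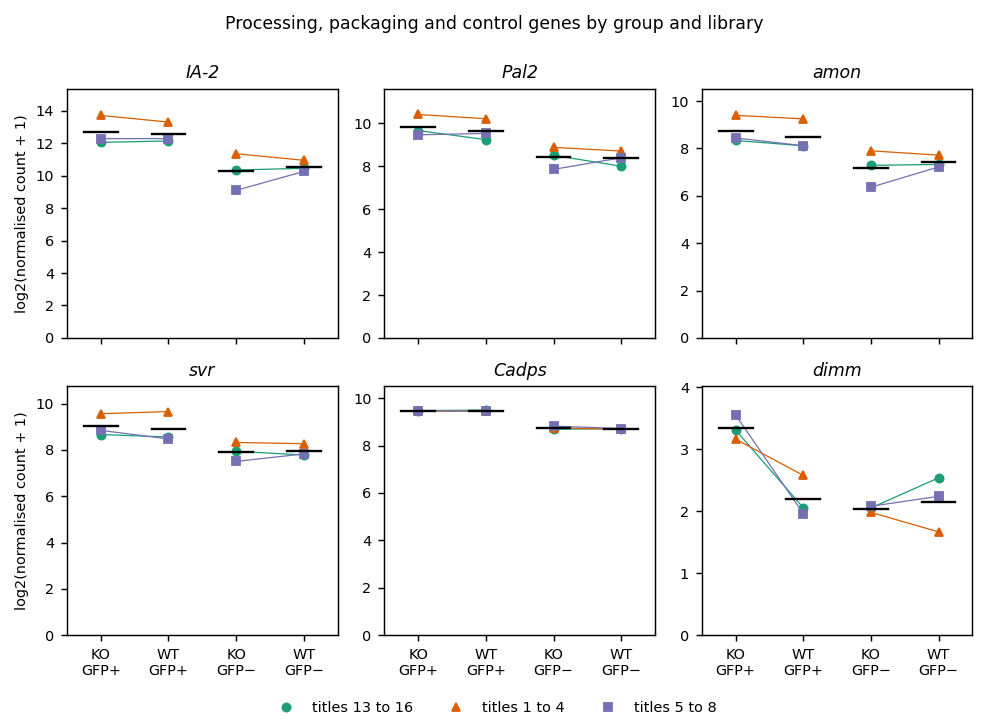
Normalised counts (vertical axis, log2 of the value plus 1) of IA-2, Pal2, amon, svr, Cadps and dimm in the 4 groups (horizontal axis); each point is 1 library, lines join libraries of 1 run and bars are means of the plotted log2 values. Cadps separates GFP-positive from GFP-negative libraries with little spread, IA-2, amon, Pal2 and svr do so with replicate 2 highest in each group, and dimm is highest in KO GFP-positive cells, at 8.91, 7.95 and 10.7.

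In GFP-negative cells, KO against WT, 0 of the 37 members passed in limma, and 0 had an unadjusted p under 0.05; edgeR and DESeq2 called 0 as well. Of all tested genes, limma called 0.686%, or 0.999% with the block, edgeR 0.686% and DESeq2 1.54%. The median log2 change was -0.11 over the members and 0.04 over all tested genes, and 0 members lay wholly higher and 4 wholly lower in KO, against 11.9% and 4.19% of all tested genes. Whether the knock-out difference itself differed between GFP-positive and GFP-negative cells was tested as an interaction. No member passed in limma without the block (6 at an unadjusted p under 0.05; 0 in edgeR and 2, Tk and dimm, in DESeq2). Of all tested genes, limma called 0.555%, edgeR 0.535% and DESeq2 1.17%. With the block 4 passed, against 1.02% of all tested genes (0.545% higher, 0.474% lower): Ms and CCHa1 with a more negative knock-out difference in GFP-positive cells, and Tk and Dh31 with a more positive one.

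A further 27 genes of the peptide pathway were listed, of which 20 were in the table and 19 were tested. In KO against WT GFP-positive cells 0 passed in limma and edgeR, 1 had an unadjusted p under 0.05, and Syt7, a vesicle calcium sensor, was called higher by DESeq2 (adjusted p = 0.0358) and in limma with the block (0.0264). In WT brains 10 were higher in GFP-positive cells and 2 were lower, against 25.7% and 12.3% of all tested genes; edgeR called 11 of the 19 and DESeq2 12, against 35.4% and 39.8% of all tested genes. The higher ones included 7B2, a helper protein of amon (log2 change 1.62 ± 0.39, adjusted p = 0.00622), the furin-like convertase Fur2 (0.69 ± 0.12, 0.000888), and the vesicle genes Rph (0.99 ± 0.14), Rab3 (1.22 ± 0.34) and Syt7 (0.91 ± 0.13). The lower ones were Pdf, the circadian pigment-dispersing factor (-2.02 ± 0.56, 0.0132), and nemy, a cytochrome b561 that supports amidation (-1.38 ± 0.26, 0.00123). In KO brains 11 were higher and nemy was lower (adjusted p = 0.00947), against 23.6% and 12.9% of all tested genes, with 7B2 at 2.06 ± 0.39 (0.00137) and Rph at 0.96 ± 0.14; edgeR and DESeq2 called 13 each, against 35.9% and 40.5%. The median log2 changes of the list were 0.69 in WT and 0.64 in KO brains, against 1.05 and 1.15 for the neuron markers. Its 15 processing and vesicle genes had medians of 0.90 in WT and 0.92 in KO brains. Its 4 tested precursors had medians of -0.41 and -0.28. The list shares nSyb and Syt1 with those markers, so the counts are not independent of them.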

How the data were processed

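RNA of FACS-sorted cells was made into libraries from 4 ng of total RNA with kits that keep no strand, per the labels' protocols. The submitters' processing notes list the build BDGP6 and the tools edgeR 3.10.5, HTSeq 0.6.1 and TopHat2 2.0.13, without the role of each. The authors deposited normalised counts, a signal whose values in each library were whole multiples of a single value for 100% of genes (tolerance 0.001), from which whole reads were recovered. Gene names, positions and exon lengths came from a BDGP6.54 annotation.

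Genes were tested two-sided with limma-trend (R 4.3.3, limma 3.58.1) on log2 of the value plus 1, with all 12 libraries and 4 group means in 1 fit and Benjamini-Hochberg adjustment over 9912 genes; fitted log2 changes are on that scale and understate the change of low genes. Folds are ratios of group means. Alternatives were a pseudocount of 0.5, no filter, rescaling all libraries to 1 total, quantile normalisation, edgeR 4.0.16 and DESeq2 1.42.0 on the recovered counts, lane as a covariate, the run as a block, and leaving out libraries. The limma, edgeR and DESeq2 fits were tested on simulated data with the same spread for all genes and no difference between runs. The fits with the block or lane were not simulated. The simulation therefore does not cover a pattern such as that of replicate 2.

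Replicate numbers follow accession order and coincide with runs of title numbers. Deviations of same-run libraries correlated in each of the 12 pairs of compared groups (r = 0.113 to 0.604; -0.563 to 0.291 in 24 pairs of different runs), so the block is treated as a pairing; the labels do not say what a run shares. Lane 7 held title numbers 13 to 16 and the KO libraries of 5 to 8, and lane 6 held 1 to 4 and the WT libraries of 5 to 8.

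Members and lists were chosen with earlier results of these data known. Members called in any comparison or with a group mean of at least 50 are given in every library, and the rest by range, count or example.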

Additional observations from a re-analysis of the deposited data

Results flagged for a closer look

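The knock-out difference of 4 precursors differed between GFP-positive and GFP-negative cells by the interaction test with the run as a block. The interaction, the log2 knock-out difference in GFP-positive cells minus that in GFP-negative cells, was -4.74 for Ms (adjusted p = 0.0356) and -2.29 for CCHa1 (0.00841). It was 2.59 for Tk (0.00854) and 2.13 for Dh31 (0.0363). Without the block the adjusted p of limma was 0.198, 0.66, 0.257 and 1.00 for Ms, CCHa1, Tk and Dh31. The same-run correlation behind the block did not hold for every pair of groups that enter this test: in the 6 pairs that no other comparison uses it ran from -0.335 to 0.473. For all 4 genes, each run showed the same direction of knock-out difference in GFP-positive cells. Of all tested genes, 20.6% were higher and 15.3% lower in all 3 runs. That direction does not compare GFP-positive with GFP-negative cells, and the blocked fit that picked the genes favours it. It therefore adds no support to the interaction.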

How the results depend on the processing

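Counts of members are given as higher and lower. In KO against WT GFP-positive cells, with 2 and 3 by limma, the count of higher members was 4 with lane as a covariate and 4 with the replicate block, and that of lower members was 1 in edgeR, 5 in DESeq2 and 0 without the 2 libraries richest in rRNA. In WT GFP-positive against WT GFP-negative cells, with 10 and 5, the higher count was 16 with lane and 17 with the block, and the lower count was 8 after rescaling all libraries to 1 total, 3 with quantile normalisation and 10 with the block. In KO GFP-positive against KO GFP-negative cells, with 12 and 5, the higher count was 19 with the block and 19 without the 2 rRNA-rich libraries, and the lower count was 8 in DESeq2. For the interaction, with 0 and 0, the higher count was 2 in DESeq2, 1 with lane, 2 with the block and 1 without title numbers 1 to 4, and the lower count was 2 with the block and 1 without those titles. Leaving out 1 library at a time gave 0 to 3 higher and 1 to 3 lower, 8 to 13 and 3 to 6, 9 to 17 and 3 to 6, and for the interaction 0 to 1 and 0 to 1, in the same order of comparisons; the count stayed 0 in GFP-negative cells. Of 814 alternative values of the 37 calls, 742 kept direction and call, 72 lost the call and 0 changed direction; the causes were not tested. The block lost no call of limma.

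Rescaling all libraries to 1 total moved the median log2 change of all genes by -0.27 (WT GFP-positive against GFP-negative) and -0.21 (KO). edgeR and DESeq2 moved it by -0.12 and -0.14 for WT. Per-kilobase levels by the longest transcript moved beyond the replicate SD for 6 of 60 values.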
